A study of Mus musculus with 2 samples.

Results

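The 10 genes described here are Ppara and 9 enzymes of mitochondrial fatty acid oxidation (Cpt1a, Cpt1b, Cpt2, Acadm, Acadl, Acadvl, Hadha, Hadhb and Etfdh). They were chosen by name, and each matched 1 of the 33943 genes of the deposited gene list. Their unique molecular identifiers (UMIs, 1 per captured RNA molecule) were counted in single nuclei of the inguinal mammary fat pad, with the lymph nodes removed, on day 11 of lactation. The animals labelled Oxtr-KO (4 dams) are described in the labels as lacking the oxytocin receptor gene in adipocytes, a loss that the Oxtr counts below do not show, and the animals labelled WT (4 dams) were taken as carrying the floxed gene without deletion, the only other genotype in the sample labels. All breeders were 8 weeks old at mating and ate chow, 7 litters held 5 pups and 1 held 3, and the labels tie no litter to a dam and do not name the promoter that drives the deletion. Nuclei of all 8 dams were pooled into 1 library and traced to a dam by hashtags (DNA-barcoded tags).

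Fatty acids enter mitochondria as carnitine esters. CPT1 enzymes (Cpt1a in most tissues, Cpt1b in muscle and brown fat) make the esters on the outer membrane and are blocked by malonyl-CoA, the building block of fatty acid synthesis, and CPT2 turns them back into acyl-CoA inside. Acyl-CoA dehydrogenases for very long, long and medium chains (Acadvl, Acadl, Acadm) start each round of oxidation. The trifunctional protein (Hadha and Hadhb subunits) carries out the later steps on long chains, and Etfdh passes the electrons on to ubiquinone. Ppara encodes PPARα, a nuclear receptor for fatty acids that turns on many of these genes in liver. The lactating gland mostly makes fat, in the secretory luminal cells that also make the milk proteins, beside adipocytes that store and release it.

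A total of 13005 nuclei were traced to a named dam, 1311 to 2011 per dam, with a median of 4239 to 5621 UMIs per nucleus. Nuclei were grouped by marker genes into secretory luminal cells (9705 nuclei with a dam), adipocytes (368), luminal progenitors (247), myoepithelial cells (915), fibroblasts (690), vascular endothelial cells (191) and macrophages (415). All 12 adipocyte markers marked the adipocyte cluster. Oxtr itself did not fall in the adipocyte nuclei of the dams labelled Oxtr-KO. It stood there at 14.1, 13.4, 22.7 and 15.9 CPM (the usual per-million scale, UMIs of the gene over all UMIs of the dam in that type) in dams 1 to 4 labelled Oxtr-KO, against 4.43, 5.81, 4.61 and 6.11 CPM in dams 1 to 4 labelled WT, on 18 and 4 UMIs in all. It averaged 21.3 CPM in macrophages and 11.8 CPM in fibroblasts of dams labelled Oxtr-KO, against 8.16 and 3.06 CPM in those types of dams labelled WT, with overlap in both. In myoepithelial nuclei it ranged from 178 to 204 CPM in dams labelled Oxtr-KO, against 222 to 243 CPM in dams labelled WT, without overlap and not called by edgeR (adjusted p = 0.520). Secretory nuclei, where free RNA could give such counts, averaged 4.496 CPM in dams labelled Oxtr-KO and 3.96 CPM in dams labelled WT. The labels do not give the deleted part of the gene, so these UMIs do not check the deletion. Every difference between genotypes below is therefore one between dams as labelled. The milk protein genes took a median of 15.4% of the UMIs in secretory nuclei, which express them. They still took 7.86% in adipocyte nuclei, a gauge there of free RNA from secretory cells that each nucleus picks up. Adipocytes had the lowest share of the types compared. The median was 10.5% in fibroblasts, 11.8% in luminal progenitors, 11.8% in myoepithelial cells, 12.2% in macrophages and 15.2% in vascular endothelial cells. The part of free RNA in the members' levels in these types was not tested.

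Promoters of 9 members were found in RefSeq (build GRCm38.p6, 250 bases before to 50 bases after the start site). Those of Hadhb, Cpt1a and Acadl are shown, Hadhb because its window shares 228 bases with that of Hadha, and the other members because they had the largest differences between genotypes in secretory nuclei. The Hadha and Hadhb genes run away from each other from start sites 273 bases apart. Capitals mark the GC box GGGCGG and the nuclear receptor core site AGGTCA, each on either strand.

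Hadhb, chr5:30155003-30155302, plus strand: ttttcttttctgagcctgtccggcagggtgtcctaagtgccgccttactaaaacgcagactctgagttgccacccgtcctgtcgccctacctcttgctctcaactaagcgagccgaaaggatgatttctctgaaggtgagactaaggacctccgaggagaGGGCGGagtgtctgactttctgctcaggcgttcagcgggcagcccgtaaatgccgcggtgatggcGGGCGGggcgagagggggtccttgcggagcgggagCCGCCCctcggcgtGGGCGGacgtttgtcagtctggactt
Cpt1a, chr19:3323051-3323350, plus strand: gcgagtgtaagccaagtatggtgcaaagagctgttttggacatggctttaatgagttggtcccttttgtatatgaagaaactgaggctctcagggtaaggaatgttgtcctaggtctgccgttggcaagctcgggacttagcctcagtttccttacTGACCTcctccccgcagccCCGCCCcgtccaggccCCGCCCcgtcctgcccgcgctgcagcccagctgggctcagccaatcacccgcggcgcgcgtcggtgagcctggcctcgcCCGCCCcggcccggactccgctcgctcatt
Acadl, chr1:66863260-66863559, minus strand: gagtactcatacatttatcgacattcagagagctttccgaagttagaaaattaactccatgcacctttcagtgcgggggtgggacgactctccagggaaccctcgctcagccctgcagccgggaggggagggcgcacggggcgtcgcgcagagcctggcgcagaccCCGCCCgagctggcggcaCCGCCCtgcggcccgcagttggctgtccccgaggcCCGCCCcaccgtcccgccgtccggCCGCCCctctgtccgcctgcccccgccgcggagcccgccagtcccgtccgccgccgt

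The GC box occurred in 7 of the 9 member windows, against 35.7% of all 32851 promoter windows. The only GC box of Hadha lies in the bases it shares with Hadhb and is counted in both, and the member windows are 50.67% to 74.67% G and C, against a median of 52.67% over all windows. The core site occurred in 3 of 9 (Cpt1a, Acadm and Acadvl), against 16.3% of all windows. The DR1 element, a direct repeat of that core site with 1 base between, which PPARα binds with its partner RXR, occurred in 0 of 9 member windows and in 0.0396% of all windows. A match is a stretch of letters and was not tested as a binding site.

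Levels across cell types were taken per dam, over all 8 dams of both genotypes, as a description without a test because the cell types were clustered on the same nuclei. The adipocyte nuclei held the highest median of 7 members, while Cpt1a and Etfdh were led by other types and Cpt1b was not detected in adipocytes. Ppara ranged from 48.9 to 222 CPM in adipocyte nuclei (median 106 CPM), above every dam's value of 28.7 to 42.6 CPM in secretory nuclei (median 38.8 CPM). Myoepithelial nuclei followed with a median of 31.5 CPM, and fibroblasts, endothelial cells, macrophages and luminal progenitors had medians of 12.8 to 20.6 CPM with ranges that overlapped.

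Cpt1a, the regulated entry step, had the opposite order. Its median was 38.5 CPM in macrophages (24.2 to 70.7) and 33.7 CPM in fibroblasts (17.3 to 45.0). Endothelial, luminal progenitor and myoepithelial nuclei lay between, with medians of 20.1, 18.2 and 17.9 CPM. Secretory nuclei had a median of 7.80 CPM (2.39 to 15.2), and adipocyte nuclei 3.10 CPM (0 to 9.21). The adipocyte level rested on 6 UMIs in 368 nuclei, a pooled level of 3.15 CPM with an exact Poisson interval of 1.15 to 6.85 CPM that covers counting error only. The ranges of neighbouring types overlapped at every step of this order. The type with the highest level of the receptor gene Ppara thus had the lowest level of Cpt1a.

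Cpt1b, the muscle form, gave 1 UMI in secretory nuclei, in a dam labelled WT, and 0 UMIs in the 6 other types. The 0 in adipocytes allows up to 1.57 CPM of UMIs assigned to Cpt1b. Cpt1b overlaps a read-through gene on the same strand (Gm44502), so molecules that fit both genes may be missing from its count. These counts are therefore no bound on its expression. Cpt2, the inner carnitine transferase, had a median of 33.0 CPM in adipocyte nuclei (23.2 to 53.7), above every other type in its median. The 6 other types lay between 9.54 and 15.3 CPM and were not separated.

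The dehydrogenases of medium and long chains also had their highest median in adipocyte nuclei. Acadm ranged from 90.7 to 177 CPM in adipocyte nuclei (median 115 CPM), and the highest value of any dam in another type was 55.4 CPM, in luminal progenitors. Acadl had a median of 207 CPM in adipocyte nuclei (142 to 399), 91.6 CPM in luminal progenitors (55.4 to 212) and 28.9 CPM in secretory nuclei (12.4 to 71.5), the lowest of the 7 types. Within single dams, adipocyte nuclei held 2.95 to 10.3 times the secretory level of Acadl in dams labelled Oxtr-KO and 4.01 to 14.7 times in dams labelled WT. Acadvl was sparse in all types, with a median of 14.97 CPM in adipocyte nuclei (5.81 to 23.0) and 6.85 CPM in secretory nuclei (5.37 to 8.70).

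The subunits of the trifunctional protein were detected in every type with overlapping ranges. Hadha had a median of 188 CPM in adipocyte nuclei (151 to 226) and 127 CPM in secretory nuclei (72.5 to 225), with the other 5 types between 82.8 and 153 CPM. Hadhb had a median of 118 CPM in adipocyte nuclei (93.1 to 190) and 74.9 CPM in secretory nuclei (47.8 to 137), with the others between 55.5 and 72.2 CPM. In secretory nuclei the UMIs of Hadha were 1.67 ± 0.205 times those of Hadhb in dams labelled Oxtr-KO and 1.62 ± 0.188 times in dams labelled WT (SD, n = 4 each). Because a ratio of UMIs also depends on gene length, it compares dams and not the genes. Etfdh, the exit to the respiratory chain, was led by myoepithelial nuclei with a median of 78.7 CPM (62.5 to 95.3), and adipocyte nuclei followed with 72.9 CPM (52.3 to 91.7), which overlapped. Hadha, Acadvl and Etfdh overlap a protein-coding gene on the opposite strand, and whether UMIs were assigned by strand is not stated in the labels.

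**Figure D1:**
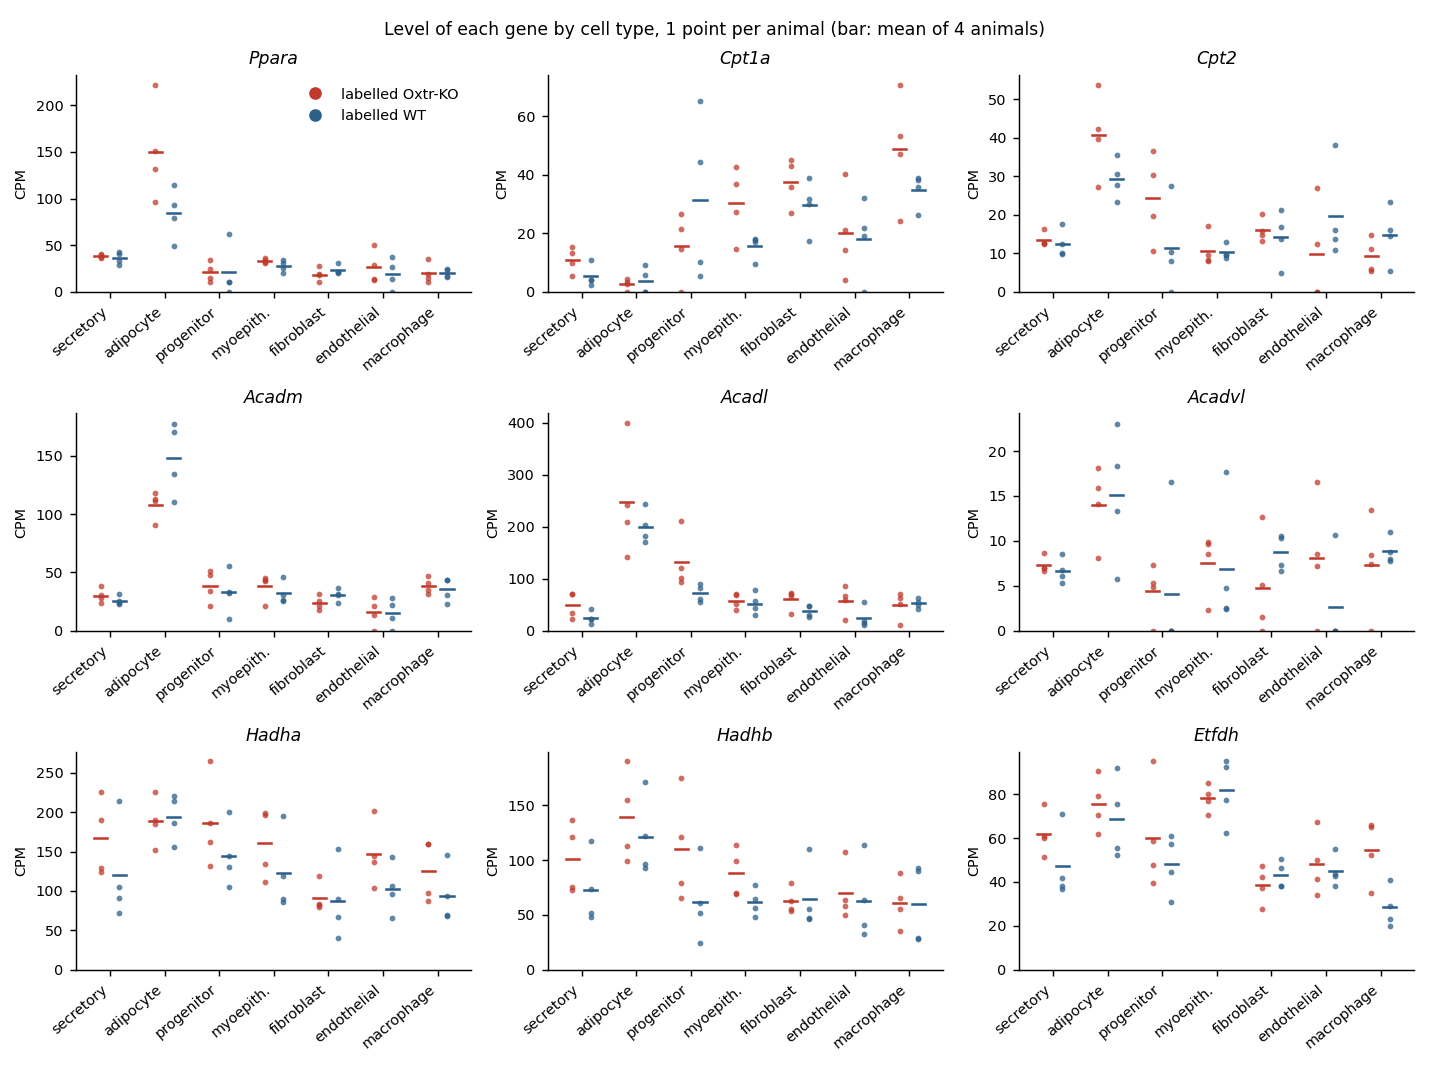
Level of each member (y axis, CPM, starting at 0) by cell type (x axis). Each point is 1 dam, red for the 4 dams labelled Oxtr-KO and blue for the 4 labelled WT, and each bar is the mean of the 4 dams of its genotype. The adipocyte column stands highest for Ppara, Cpt2, Acadm and Acadl, and is the lowest for Cpt1a at a median of 3.10 CPM.

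Genes with a like profile over 10 named types (the 7 above with T and NK cells, B and plasma cells and pericytes) were ranked by Pearson correlation of log2(CPM + 1) among 12433 genes. For Cpt1a they were Apaf1 (r = 0.92), Med15 (r = 0.92) and Nde1 (r = 0.92). For Ppara they were Blcap (r = 0.96), 4930593A02Rik (r = 0.96) and Bag4 (r = 0.96). These r values are descriptions over types that share 1 library.

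In secretory luminal nuclei, the cells that make milk, all 9 members that could be tested were higher in dams labelled Oxtr-KO, and none passed the test. Their median log2 fold change (Oxtr-KO over WT) was 0.37, against -0.01 over all 12798 genes tested, of which 48.5% were higher. The edgeR quasi-likelihood test with Benjamini-Hochberg adjustment over all genes called 0 genes (0%) at an adjusted p under 0.05, 0 of them members. Unadjusted p values lay under 0.05 for 1097 genes, 2 of them members. DESeq2 called 29 genes and 0 members. Cpt1b, with 1 UMI, did not pass the filter on low counts, and without that filter it was not called (edgeR adjusted p = 0.744). Without dam 1 labelled WT 8 of 9 were higher with a median of 0.30. With the hashtag ratio rule, a stricter assignment of nuclei to dams, 6 of 8 members were higher with a median of 0.19. That rule assigned 3867 nuclei of all types in place of 13005, and unevenly. Secretory nuclei went from 1508 to 1373 in Oxtr-KO dam 1, but from 907 to 33 in Oxtr-KO dam 3. In dams 2 and 3 labelled WT they went from 1354 to 78 and from 1605 to 94.

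Cpt1a had the largest difference. It stood at 5.60, 9.99, 13.3 and 15.2 CPM in dams 1 to 4 labelled Oxtr-KO, against 4.09, 2.39, 3.93 and 11.0 CPM in dams 1 to 4 labelled WT. Dam 4 labelled WT lay within the range of the Oxtr-KO dams, and the other WT dams lay below all of them. The log2 fold change was 1.06 (SE 0.42), with an edgeR adjusted p of 0.563, a range of 0.0876 to 0.999 over other settings and 1 in the fit with depth described below. Acadl, the long-chain dehydrogenase, stood at 23.6, 34.1, 71.5 and 71.1 CPM in dams labelled Oxtr-KO, against 12.4, 23.6, 23.2 and 42.7 CPM in dams labelled WT. Its groups overlapped, with Oxtr-KO dams 3 and 4 far above their own group's other dams. The log2 fold change was 0.94 (SE 0.39, edgeR adjusted p = 0.563).

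The trifunctional subunits were also highest in Oxtr-KO dams 3 and 4 and dam 4 labelled WT. Hadha stood at 124, 129, 190 and 225 CPM in dams labelled Oxtr-KO, against 72.5, 90.6, 105 and 214 CPM in dams labelled WT. Hadhb stood at 75.7, 72.5, 137 and 121 CPM in dams labelled Oxtr-KO, against 47.8, 52.1, 74.0 and 118 CPM in dams labelled WT. In both genes, dam 4 labelled WT was close to the highest Oxtr-KO dams. The log2 fold changes were 0.46 (SE 0.30) for Hadha and 0.45 (SE 0.27) for Hadhb, with edgeR adjusted p values of 0.682 and 0.661. Etfdh stood at 60.7, 51.6, 75.3 and 59.8 CPM in dams labelled Oxtr-KO, against 38.4, 36.8, 41.8 and 71.2 CPM in dams labelled WT. Its log2 fold change was 0.37 (SE 0.18, edgeR adjusted p = 0.605), and again only dam 4 of the WT group reached the Oxtr-KO range.

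The remaining members were nearly level. Ppara averaged 38.9 ± 1.87 CPM in dams labelled Oxtr-KO and 36.3 ± 6.64 CPM in dams labelled WT (SD, n = 4 each), a log2 fold change of 0.07 (SE 0.12). Acadm averaged 30.1 ± 5.85 CPM in dams labelled Oxtr-KO and 25.9 ± 3.85 CPM in dams labelled WT. Cpt2 ranged from 12.4 to 16.3 CPM in dams labelled Oxtr-KO, against 9.75 to 17.6 CPM in dams labelled WT. Acadvl ranged from 6.71 to 8.70 CPM in dams labelled Oxtr-KO, against 5.37 to 8.54 CPM in dams labelled WT. Acadm, Cpt2 and Acadvl had log2 fold changes of 0.17 (SE 0.13), 0.09 (SE 0.17) and 0.12 (SE 0.18), and their groups overlapped.

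**Figure D2:**
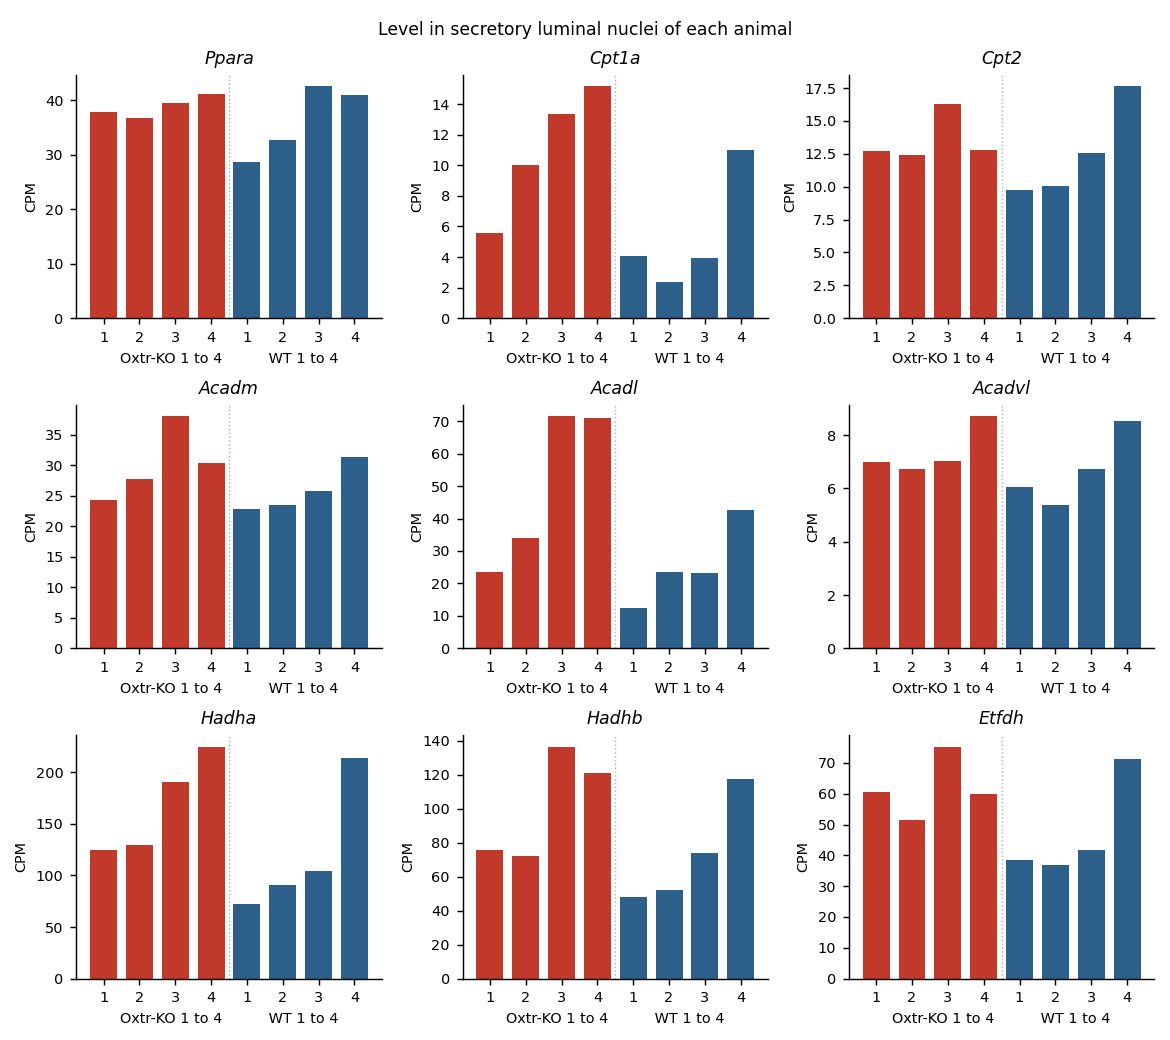
Level of each member in secretory luminal nuclei (y axis, CPM, starting at 0), 1 bar per dam, with dams 1 to 4 labelled Oxtr-KO in red on the left and dams 1 to 4 labelled WT in blue on the right. Dam 4 labelled WT stands with the highest dams in all 9 panels, for example at 214 CPM of Hadha.

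The same dams were high or low for most members. Dam 4 labelled WT was among the 3 highest of the 8 dams for 9 of 9 members, and Oxtr-KO dams 3 and 4 for 8 of 9 each. Dam 1 labelled WT was among the 3 lowest for 9 of 9, and dam 2 labelled WT for 8 of 9. Over all 12798 genes tested, dam 4 labelled WT was among the 3 highest for 51.7%, and Oxtr-KO dams 3 and 4 for 55.3% and 33.8%. Dams 1 and 2 labelled WT were among the 3 lowest for 47.7% and 49.5% of those genes. Without dam 4 labelled WT the median log2 fold change of the members was 0.59, and edgeR called 32 genes and 0 members.

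The 3 dams with the highest members also had the lowest depth per nucleus, but only Oxtr-KO dam 3 stood apart in depth. The median secretory nucleus held 5273, 5180, 4461 and 5107 UMIs in dams 1 to 4 labelled Oxtr-KO, against 5788, 5742, 5200 and 5095 UMIs in dams 1 to 4 labelled WT. The lowest depths belonged to Oxtr-KO dams 3 and 4 and to dam 4 labelled WT, and the highest to WT dams 1 and 2. Oxtr-KO dam 2 and dam 3 labelled WT were nearly as shallow as the dams numbered 4. They were among the 3 highest for only 0 and 1 of 9 members, and among the 3 lowest for 4 of 9 each. In a fit with log2 depth as a second term, chosen after these values had been seen, 9 of 9 members had a negative depth coefficient (median -1.93 per doubling of depth), 5 of them at an unadjusted p under 0.05. Over all 12798 genes the median coefficient was 0.02, 50.7% were positive and 1917 had an unadjusted p under 0.05. None of the 9 was among the 79 genes (0.617%) that edgeR called for depth. In that fit 6 of 9 members were still higher in dams labelled Oxtr-KO, with a median log2 fold change of 0.07, against 49.2% of all genes. Cpt1a stood at 0.62 (SE 0.44), Acadl at 0.41 (SE 0.38), Etfdh at 0.15 (SE 0.18), Hadha at 0.13 (SE 0.30) and Hadhb at 0.026 (SE 0.22), all with an edgeR adjusted p of 1. Depth and genotype overlap in these dams, and the part of depth in the difference was not tested beyond this fit.

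**Figure D3:**
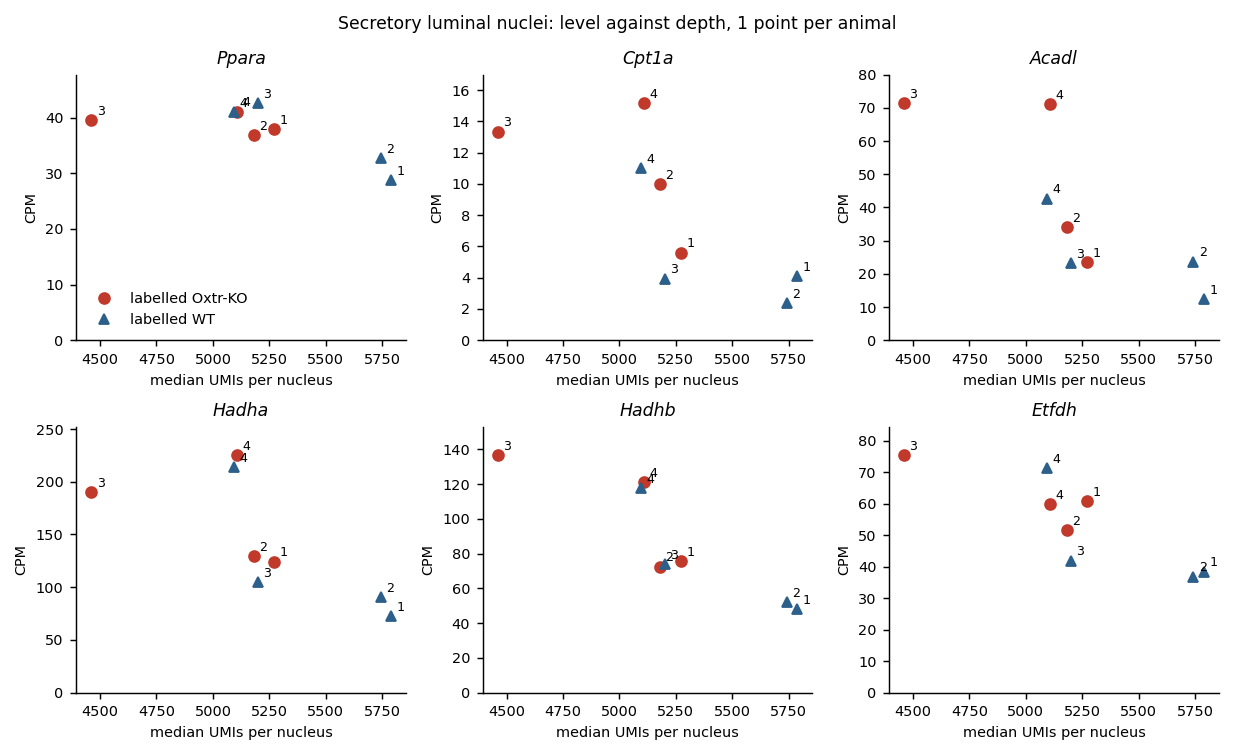
Level of 6 members in secretory luminal nuclei (y axis, CPM, starting at 0) against the median UMIs per nucleus of the dam (x axis). Each point is 1 dam, red circles for dams labelled Oxtr-KO, blue triangles for dams labelled WT, with the dam's number beside it. Dams 1 and 2 labelled WT, at 5788 and 5742 UMIs, have the lowest levels of Hadha and Hadhb, and Oxtr-KO dam 3, at 4461 UMIs, is among the highest.

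Milk protein genes took 15.1 ± 2.44% of the UMIs of secretory nuclei in dams labelled Oxtr-KO and 15.1 ± 0.823% in dams labelled WT (SD, n = 4 each). Secretory nuclei express these genes themselves, so this share does not gauge free RNA there. Oxtr-KO dam 3 stood apart at 11.5%, against 16.0%, 16.2% and 16.8% in the other dams of its group. In adipocyte nuclei the share was 8.13 ± 0.689% in dams labelled Oxtr-KO and 7.66 ± 0.406% in dams labelled WT. The summed adipocyte markers in secretory nuclei ranged from 414 to 736 CPM in dams labelled Oxtr-KO, against 315 to 609 CPM in dams labelled WT. All 12 of 12 adipocyte markers were detected there, and the part of adipocyte RNA in the members' differences was not tested.

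Secretory nuclei fell into 3 clusters, 1 led by genes that include Ucp3, 1 led by genes that include Plpp4 and Elovl5, and a small cluster led by cell cycle genes such as Top2a. The Ucp3 cluster held 52.9 ± 7.08% of the secretory nuclei in dams labelled Oxtr-KO and 46.4 ± 24.0% in dams labelled WT (SD, n = 4 each). Dam 4 labelled WT stood apart with 78.1% in that cluster and 15.5% in the Plpp4 cluster, and dam 2 labelled WT on the other side with 21.6% and 74.7%. The Top2a cluster held 6.50% to 8.69% in dams labelled Oxtr-KO, against 3.69% to 6.38% in dams labelled WT, without overlap and untested. Hadha averaged 147 ± 56.0 CPM in the Ucp3 cluster and 141 ± 60.9 CPM in the Plpp4 cluster over the 8 dams, and Acadl 35.7 ± 22.3 and 39.4 ± 23.2 CPM. Acadvl was higher in the Ucp3 cluster in 7 of 8 dams, with 8.19 ± 1.76 CPM there and 6.06 ± 1.08 CPM in the Plpp4 cluster.

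In the Ucp3 cluster 8 of 9 members were higher in dams labelled Oxtr-KO (median log2 fold change 0.38, against -0.01 over 10856 genes). In the Plpp4 cluster 7 of 9 were higher (0.35, against -0.01 over 11292 genes), and in the Top2a cluster 5 of 6 (0.37, against -0.02 over 5376 genes). With the hashtag ratio rule the direction turned in the Ucp3 cluster, with 2 of 6 members higher and a median of -0.05. That fit held 3 dams labelled Oxtr-KO, because dam 3, one of the dams with high members, kept only 8 nuclei. Dams 2 and 3 labelled WT kept 12 and 27 nuclei in it. In the Plpp4 cluster 5 of 7 were higher under that rule with a median of 0.20, with 19 nuclei left in Oxtr-KO dam 3. The edgeR test called 0 members and 0 genes (0%) in each cluster, with 786, 1095 and 319 genes at an unadjusted p under 0.05. DESeq2 called 8, 27 and 0 genes in the 3 clusters. Cpt1a in the Plpp4 cluster stood at 6.36, 9.83, 14.1 and 15 CPM in dams labelled Oxtr-KO, against 3.84, 1.79, 4.05 and 12.3 CPM in dams labelled WT (log2 fold change 1.37, SE 0.44, edgeR adjusted p = 0.421). In the Ucp3 cluster its log2 fold change was 0.67 (SE 0.39).

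In adipocyte nuclei, the cells in which the labels place the deletion, Ppara and Acadm leaned in opposite directions. Ppara stood at 222, 96.7, 131 and 151 CPM in dams 1 to 4 labelled Oxtr-KO, against 79.8, 92.9, 115 and 48.9 CPM in dams 1 to 4 labelled WT. Only dam 3 labelled WT exceeded the lowest Oxtr-KO dam. The log2 fold change was 0.79 (SE 0.30), with an edgeR adjusted p of 0.456 and a range of 0.184 to 0.775 over its alternatives. Acadm stood at 113, 118, 90.7 and 111 CPM in dams labelled Oxtr-KO, against 177, 110, 170 and 134 CPM in dams labelled WT. Only dam 2 labelled WT fell into the Oxtr-KO range. Its log2 fold change was -0.47 (SE 0.22, edgeR adjusted p = 0.596).

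The other members tested in adipocytes differed by less than their spread. Acadl stood at 243, 142, 399 and 210 CPM in dams labelled Oxtr-KO, against 182, 203, 244 and 171 CPM in dams labelled WT (log2 fold change 0.27, SE 0.27). Hadhb, Etfdh and Hadha had log2 fold changes of 0.21, 0.11 and -0.06 with standard errors of 0.27, 0.27 and 0.21. In all, 4 of 6 members were higher and 0 were called, against 1 of 3867 genes (0.0259%) that edgeR called, Ofcc1. Unadjusted p values lay under 0.05 for 322 genes, 2 of them members, and 4 genes but 0 members were called by DESeq2. The median log2 fold change was 0.16 for the members and close to 0 over all genes tested. That member median was -0.0073 with 3 of 6 higher without Oxtr-KO dam 3, 0.30 without Oxtr-KO dam 2, 0.088 without Oxtr-KO dam 1 and 0.060 without dam 3 labelled WT. Cpt1a, Cpt2 and Acadvl had 6, 71 and 27 UMIs in adipocytes and did not pass the filter on low counts, nor did Cpt1b with 0. Cpt2 averaged 40.7 ± 10.9 CPM in dams labelled Oxtr-KO and 29.2 ± 5.13 CPM in dams labelled WT (SD, n = 4 each), and without that filter it was not called (log2 fold change 0.52, SE 0.42, edgeR adjusted p = 0.780).

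The adipocyte markers themselves were unequal between these groups. Their sum in adipocyte nuclei ranged from 18050 to 20721 CPM in dams labelled Oxtr-KO, against 23390 to 30917 CPM in dams labelled WT, without overlap. Its part in the difference of Acadm and Ppara was not tested. Without dam 4 labelled WT edgeR called 42 genes in adipocytes, and without dams 1 or 3 labelled Oxtr-KO or dam 1 labelled WT it called 0. Members called remained at 0 in each of these fits.

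**Figure D4:**
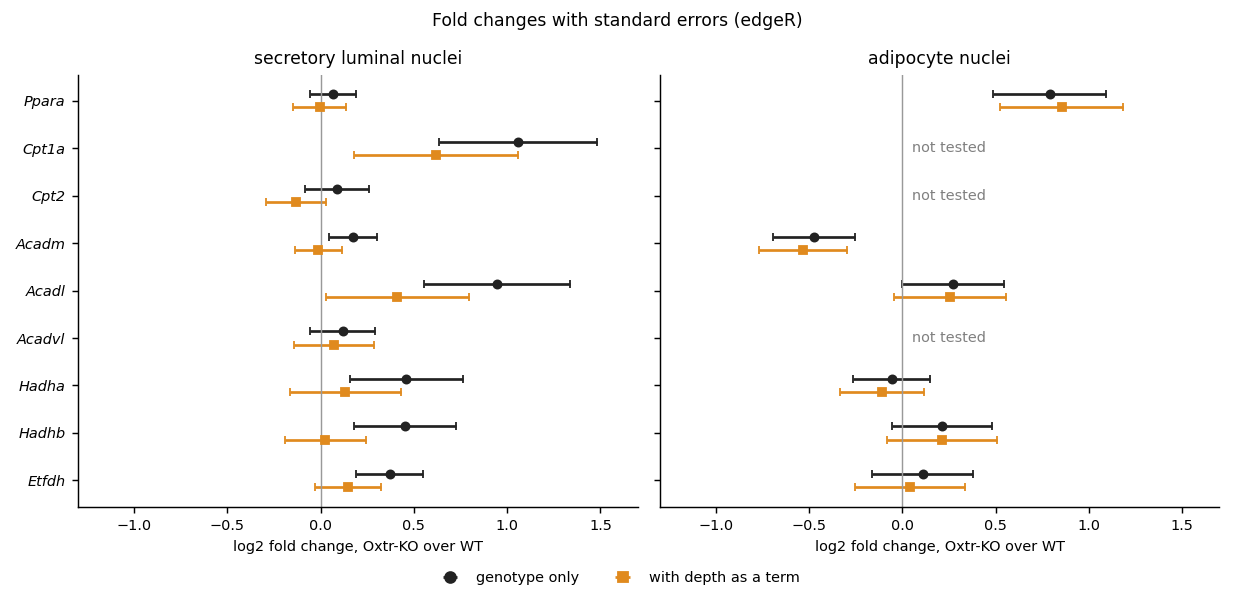
Log2 fold change of each member, Oxtr-KO over WT (x axis), in secretory luminal nuclei (left) and adipocyte nuclei (right), from edgeR with 4 dams per genotype. Black points come from the fit on genotype alone, orange squares from the fit with depth as a second term, and bars are standard errors. In secretory nuclei the black points of all 9 members lie above 0 and the orange ones lie nearer to 0 except for Cpt2, at -0.13, while in adipocytes Ppara stands at 0.79 and Acadm at -0.47.

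The genotype difference was then compared between adipocyte and secretory nuclei of the same dams. None of the 6 members measured in both passed, and neither did any of the 3709 genes tested (0%), with 317 genes at an unadjusted p under 0.05 in the edgeR interaction fit. The difference of log2 fold changes, adipocyte minus secretory, was 0.71 for Ppara (SE 0.31, adjusted p = 0.560 by edgeR) and -0.61 for Acadm (SE 0.27, adjusted p = 0.558 by edgeR). It was -0.68 for Acadl (SE 0.39), -0.55 for Hadha (SE 0.25), -0.24 for Etfdh and -0.21 for Hadhb.

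In luminal progenitors all 3 testable members were higher in dams labelled Oxtr-KO, with 0 called among 2989 genes (0%). Acadl stood at 102, 93.5, 121 and 212 CPM in dams labelled Oxtr-KO, against 89.7, 82.4, 60.7 and 55.4 CPM in dams labelled WT, and the groups did not overlap. Its log2 fold change was 0.91 (SE 0.33, edgeR adjusted p = 0.913), from 101 and 35 UMIs. Hadhb had 0.92 (SE 0.41) and Hadha 0.45 (SE 0.28) on the same scale. The edgeR fit had 141 genes at an unadjusted p under 0.05, while 1 gene was called by DESeq2.

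In myoepithelial nuclei, the contractile cells that eject milk, 5 of 6 members were higher in dams labelled Oxtr-KO and 0 were called, against 1 of 6570 genes (0.0152%), Got1, with 515 genes at an unadjusted p under 0.05 in edgeR and 1 gene called by DESeq2. Hadhb stood at 70.5, 68.8, 99.4 and 114 CPM in dams labelled Oxtr-KO, against 56.1, 48.5, 64.4 and 77.4 CPM in dams labelled WT (log2 fold change 0.47, SE 0.21, edgeR adjusted p = 0.596). In macrophages 4 of 6 were higher and 0 were called among 5271 genes (0%), with a median log2 fold change of 0.21 that was -0.058 without the nuclei of highest doublet score. Etfdh there stood at 35.0, 65.8, 64.9 and 52.1 CPM in dams labelled Oxtr-KO, against 20.0, 29.2, 23.2 and 41.1 CPM in dams labelled WT. That was a log2 fold change of 0.87 (SE 0.32, edgeR adjusted p = 0.783), with only dam 4 of the WT group above the lowest Oxtr-KO dam. Cpt1a, highest in this type, stood at 24.2, 53.1, 47.2 and 70.7 CPM in dams labelled Oxtr-KO, against 35.9, 26.3, 38.7 and 38.3 CPM in dams labelled WT (log2 fold change 0.47, SE 0.33).

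In fibroblasts 2 of 6 members were higher in dams labelled Oxtr-KO, 0 were called among 6172 genes (0%), and the median log2 fold change was -0.06. Without dam 4 labelled WT the direction turned, with 4 of 6 higher and a median of 0.33, without dam 1 labelled WT the median was -0.25, and with a replicate block it was 0.019. Acadl had the largest value with 0.49 (SE 0.29). In vascular endothelial nuclei 1 member could be tested, Hadha, with a log2 fold change of 0.37 (SE 0.30) and 0 calls among 2240 genes (0%). The edgeR fits of macrophages, fibroblasts and endothelial cells had 313, 437 and 94 genes at an unadjusted p under 0.05, with 1, 1 and 2 genes called by DESeq2.

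The rest of the pathway was read from lists. Of 17 other genes of mitochondrial fatty acid oxidation tested in secretory nuclei, 13 were higher and 4 lower in dams labelled Oxtr-KO, 0 called, with a median log2 fold change of 0.15. Eci2, an isomerase for unsaturated chains, averaged 47.4 ± 22.9 CPM in dams labelled Oxtr-KO and 24.1 ± 12.6 CPM in dams labelled WT (log2 fold change 0.94, SE 0.37). Slc25a20, the carnitine carrier of the inner membrane, averaged 24.9 ± 6.85 CPM in dams labelled Oxtr-KO and 14.6 ± 8.53 CPM in dams labelled WT (0.76, SE 0.33). Acadsb, a dehydrogenase of short branched chains, had 0.23 (SE 0.09), and its groups did not overlap, with 174 to 205 CPM in dams labelled Oxtr-KO against 136 to 173 CPM in dams labelled WT. With depth as a second term Eci2 stood at 0.30 (SE 0.29), Slc25a20 at 0.33 (SE 0.29) and Acadsb at 0.22 (SE 0.11). In adipocyte nuclei 3 of 11 genes of that list were higher and 8 lower, 0 called, with a median of -0.23. Acat1 and Eci1 had log2 fold changes of -0.53 (SE 0.25) and -0.60 (SE 0.32) there, and Etfa, which delivers electrons to Etfdh, had 0.36 (SE 0.22).

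Peroxisomal oxidation, which shortens very long chains, had 9 of 12 genes higher in secretory nuclei (median 0.21) and 1 of 7 in adipocyte nuclei (median -0.23), 0 called in each. Ehhadh, its bifunctional enzyme, averaged 96.9 ± 22.6 CPM in adipocyte nuclei of dams labelled Oxtr-KO and 166 ± 45.4 CPM in those of dams labelled WT (log2 fold change -0.80, SE 0.25, edgeR adjusted p = 0.330). Abcd3, a peroxisomal transporter, had 0.33 (SE 0.15) in secretory nuclei. Fatty acid activation, the step before carnitine, had 5 of 9 genes higher in secretory nuclei (median 0.07) and 2 of 4 in adipocyte nuclei (median 0.03). Slc27a3 and Acsl4 had secretory log2 fold changes of -0.77 (SE 0.23) and 0.57 (SE 0.23), and of -0.84 (SE 0.30) and 0.15 (SE 0.20) with depth as a second term.

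Among regulators of the PPAR and PGC1 group, 16 of 21 were higher in secretory nuclei (median 0.11) and 8 of 15 in adipocyte nuclei (median 0.04), 0 called. Lpin1 is a phosphatidate phosphatase that also acts as a coactivator of PPARα in mouse liver, and was named for its small unadjusted p within this list. Its groups did not overlap in adipocytes, with 1053 to 1519 CPM in dams labelled Oxtr-KO against 668 to 911 CPM in dams labelled WT. In secretory nuclei they all but touched, with a lowest Oxtr-KO dam at 2447 CPM and a highest WT dam at 2443 CPM. In adipocytes it averaged 1210 ± 211 CPM in dams labelled Oxtr-KO and 756 ± 106 CPM in dams labelled WT (log2 fold change 0.66, SE 0.18, edgeR adjusted p = 0.274). In secretory nuclei it averaged 2721 ± 400.1 CPM in dams labelled Oxtr-KO and 2078 ± 427 CPM in dams labelled WT (0.35, SE 0.16, and 0.18 with depth as a second term). Ppargc1a, the coactivator PGC1α, ranged from 91.3 to 817 CPM in adipocyte nuclei of dams labelled Oxtr-KO, against 97.5 to 312 CPM in those of dams labelled WT (1.28, SE 0.49, edgeR adjusted p = 0.456). Pparg, the adipocyte receptor of the family, had -0.62 (SE 0.25) in adipocytes.

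Known targets of PPARα other than the members were higher for 10 of 13 genes in secretory nuclei (median 0.25) and 7 of 10 in adipocyte nuclei (median 0.17), 0 called. Ucp3, a mitochondrial carrier, averaged 170 ± 33.5 CPM in adipocyte nuclei of dams labelled Oxtr-KO and 102 ± 42.2 CPM in those of dams labelled WT (log2 fold change 0.74, SE 0.27). Fabp3 had 0.48 (SE 0.20) in adipocyte nuclei, while Ehhadh, also on this list, had -0.80 (SE 0.25) and Pdk4 -0.51 (SE 0.35). In secretory nuclei Ucp3 had 0.46 (SE 0.27, and 0.15 with depth as a second term), and Plin2, the coat protein of lipid droplets, had -0.48 (SE 0.16). The genes that set malonyl-CoA, the brake on CPT1, were higher for 3 of 11 in secretory nuclei (median -0.11) and 2 of 7 in adipocyte nuclei (median -0.15), 0 called. Stk11, the kinase upstream of AMPK, had -0.32 (SE 0.13) in secretory nuclei, and Acacb, the malonyl-CoA maker at mitochondria, had -0.57 (SE 0.28) in adipocytes. Mlycd, which breaks malonyl-CoA down, had 0.50 (SE 0.27) in secretory nuclei. Ketone body genes were higher for 3 of 5 in secretory nuclei and 1 of 4 in adipocyte nuclei, where Oxct1 had -0.61 (SE 0.24), 0 called. Of the milk proteins 4 of 8 were higher in secretory nuclei and 7 of 8 in adipocyte nuclei, 0 called, and Lalba, the subunit that makes lactose synthase, had -0.74 (SE 0.20) in secretory nuclei.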

How the data were processed

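Nuclei of 8 dams were measured in 1 pooled mRNA library with a hashtag library. The deposited files hold raw UMI counts per gene and nucleus, made with fastp and Cell Ranger 7.2.0 on GRCm39 per the submitters' processing notes. Nuclei needed 500 or more UMIs, 300 or more genes and no more than 5% mitochondrial UMIs (20854 of 21805 kept), and dams were assigned with HTODemux (Seurat 5.3.0), leaving out hashtag doublets (2012 nuclei) and nuclei with no hashtag (5570). Scrublet's automatic threshold called 0 doublets. Nuclei were clustered with scanpy 1.11.5 and leidenalg 0.10.2 (resolution 0.5) and named by marker genes, with naming rules set after the clusters were seen. Counts were summed per dam and type and tested with edgeR 4.0.16 (quasi-likelihood, TMM, filterByExpr, Benjamini-Hochberg over all genes, 0.05) in R 4.3.3, with DESeq2 1.42.0 as an alternative. On simulated data with 200 genes changed by 1.5 log2 units, 100% were recovered in secretory nuclei and 98% in adipocytes. The simulation used a fixed dispersion and changed only the better expressed genes. The members' differences were smaller than 1.5 log2 units, so these shares do not give the power to call them. Dams had 4420710 to 8913490 UMIs in secretory nuclei and 163617 to 372276 in adipocytes, and intervals and floors (3 counts) cover counting error only. The text names all 10 members, up to 4 genes of each list with the smallest unadjusted p in the secretory and adipocyte fits, and the 3 genes most like Cpt1a and Ppara. The members and lists were chosen with earlier results of these data known. Alternatives covered scaling, filters, hashtag rule, clustering, depth, replicate block and left-out dams.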

Additional observations from a re-analysis of the deposited data

Results flagged for a closer look

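In groups of 4 dams, a value was singled out when its gap to the nearest other dam, divided by the group's range, exceeded Dixon's 95% critical value for groups of that size. Of 34 groups tested 3 were singled out, and chance alone singles out about 1 in 20. Cpt2 in secretory nuclei stood at 16.29 CPM in dam 3 labelled Oxtr-KO (ratio 0.897). Acadvl stood at 8.702 CPM in dam 4 labelled Oxtr-KO (ratio 0.848). Etfdh stood at 71.16 CPM in dam 4 labelled WT (ratio 0.853).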

How the results depend on the processing

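No member was called in any type under any alternative. In 3 cases a named list gene that was not called in the main fit was called under an alternative. DESeq2 called 29 genes in secretory nuclei, 8 in the Ucp3 cluster, 27 in the Plpp4 cluster, 4 in adipocytes, 2 in endothelial cells, and 1 each in fibroblasts, luminal progenitors and macrophages. Without the filter on low counts edgeR called 82 in adipocytes, 33 in fibroblasts, 19 in luminal progenitors, 62 in macrophages, 58 in myoepithelial cells, 34 in endothelial cells, 29 in the Ucp3, 103 in the Plpp4 and 67 in the Top2a cluster. Nothing in the labels says that dam numbers mark pairs, so they were not taken as pairs. Same-numbered dams correlated at 0.23, -0.03, 0.24 and 0.14 in secretory nuclei, over 0.1 in 3 of 4 pairs. In adipocytes they correlated at 0.03, 0.11, 0.04 and 0.25. Dams of unlike numbers were not correlated for comparison, so these values do not decide whether the numbers mark pairs. A replicate block left 0 calls in secretory nuclei, with 5 members in place of 2 at an unadjusted p under 0.05, and gave 15 calls in adipocytes, 4 in fibroblasts, 26 in myoepithelial cells and 1 in endothelial cells. The hashtag ratio rule and leaving out the highest Scrublet scores gave 0 in myoepithelial cells, and leaving out those scores or adding the depth term gave 0 in adipocytes. Leaving out 1 dam gave 0 to 42 calls in adipocytes, 0 to 22 in fibroblasts, 0 to 1 in luminal progenitors, 1 to 15 in myoepithelial cells, 0 to 32 in secretory nuclei, 0 to 21 in the Ucp3, 0 to 36 in the Plpp4 and 0 to 1 in the Top2a cluster, and 0 to 1 in endothelial cells, with the highest count without dam 4 labelled WT in each of these, tied with other dams in luminal progenitors and endothelial cells. With the depth term the secretory log2 fold change was -0.013 for Acadm, -0.13 for Cpt2, -0.0055 for Ppara, -0.18 for Slc27a1, 0.029 for Prkaa2 and 0.35 for Csn1s2b. Under the hashtag ratio rule it was -0.070 for Acadm, -0.19 for Cpt2 and 0.40 for Acox2. Acadl was at -0.037 in the Ucp3 cluster, without Oxtr-KO dam 3. Hadha was at -0.013 in myoepithelial cells, in a fit of only 2 dams per genotype. Hadha in adipocytes was 0.043 without the highest Scrublet scores. Leaving out 1 dam moved adipocyte values to -0.036 to 0.49 for Acadl, -0.10 to 0.36 for Acsl4, -0.16 to 0.038 for Hadha and -0.21 to 0.026 for Slc27a1, and secretory values to -0.014 to 0.15 for Ppara and -0.33 to 0.055 for Csn1s2b. The cause was not tested. The ratio rule could not be fitted in adipocytes, fibroblasts, luminal progenitors, macrophages, endothelial cells and the Top2a cluster, nor a finer clustering in the 3 secretory clusters. Depth limits Cpt1a, Cpt1b, Cpt2 and Acadvl in adipocytes.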

Other observations

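A set of 267 nuclei carried the hashtag Unknown_sample2, which the labels put in no genotype, and 241 of them fell in an unnamed cluster of 280 nuclei led by Nrg3. Over the 267 nuclei with that hashtag, Acadvl stood at 30.4 CPM, Hadha at 74.5 CPM, Hadhb at 40.3 CPM, Cpt1a at 13.04 CPM and Ppara at 5.59 CPM. Secretory nuclei with no hashtag (1092 nuclei) had 30.9 CPM of Ppara and 103 CPM of Hadha.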
